A study of Mus musculus with 18 samples.

Results

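Hepatic stellate cells (HSC) that had spent 7 days in Matrigel together with intrahepatic cholangiocyte organoids (ICO) were set against HSC that had spent 7 days on plastic. The comparison was chosen from the sample labels and took 3 libraries of each group, 6 of the 18 libraries in the series, over all genes. The HSC came from healthy wild-type mice, the ICO carried a dTomato fluorescent tag, and the co-culture was sorted on day 7 into HSC and ICO. The labels describe a single medium for the series, a mix of serum-containing DMEM and Advanced DMEM/F12 whose growth factors were HGF, RSPO3, FGF10, EGF and gastrin and whose supplements were nicotinamide, N-acetylcysteine, N2 and B27. RNA was amplified by the Smart-seq2 protocol and sequenced in bulk. Matrigel is a soft basement membrane extract, so the 2 groups differed at once in matrix, dimension, the presence of organoids and sorting, and the contributions of these cannot be told apart here. Levels of HSC at day 0, of HSC alone in Matrigel and of co-cultured ICO are given beside some results. The labels do not tell whether the 3 libraries of a group stem from different mice or cultures, so the p-values rest on the spread among these libraries alone, and that spread may be technical.

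In the healthy liver, HSC wrap the sinusoids as pericytes and store vitamin A as retinyl esters. When the liver is injured, or when the cells are placed on stiff plastic, they lose retinoid, assemble stress fibres with smooth muscle actin and secrete fibrillar collagen, a change called activation. Mechanical load acts largely through the actin-regulated factors MRTF and SRF and through YAP and TAZ, while epithelial cells signal to HSC through secreted ligands such as TGF-β and PDGF. HSC in turn supply growth factors to bile duct cells and their progenitors.

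Total counts were 6907479, 18764262 and 14846413 in co-cultured HSC replicates 1 to 3, and 15430066, 22158674 and 17029539 in plastic HSC. Levels are CPM, the counts divided by each library's total and its TMM factor, given for replicates 1, 2 and 3 in that order. Fold changes are fitted log2 values of co-cultured HSC minus plastic HSC with a standard error (SE) taken from the test, and a gene was called when its adjusted p was under 0.05 (edgeR quasi-likelihood test, Benjamini-Hochberg over all genes tested). Of 17020 genes tested, 3901 were called higher in co-cultured HSC (22.9%) and 3338 lower (19.6%), together 42.5%. All list counts below stand beside these shares, and a count near them is no result about the list. The median log2 fold change over all genes was 0.08. Pearson correlations of log2 levels were 0.970 to 0.979 within co-cultured HSC, 0.988 to 0.991 within plastic HSC and 0.876 to 0.920 between the groups.

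Organoid transcripts were measured first because they touch every later result. Over 14 cholangiocyte genes that were below 5 CPM in every plastic and day 0 library, the median level in co-cultured HSC was 27.9%, 14.9% and 41.9% of that in co-cultured ICO. This organoid share was 0.0745%, 0.164% and 0.0247% in plastic HSC, where the choice of genes made it low. HSC alone in Matrigel had 32.5%, 12.7% and 3.84% of the level in ICO cultured alone. Levels given for that group may therefore hold such transcripts too. For a transcript that organoids lack, the shares in co-cultured HSC alone lower the level by 0.47, 0.23 and 0.78 on the log2 scale in replicates 1, 2 and 3. Results are therefore given with the level in co-cultured ICO, and with the fold change after the organoid share of each co-cultured ICO library was subtracted from the HSC library with the same replicate number. Of the genes called higher, 1235 were above ICO in all 3 replicate numbers (31.7%) and 1842 were below ICO in all 3 (47.2%). Over all genes tested these shares were 32.7% and 32.4%, so genes above ICO were no more frequent among the genes called higher. After subtraction 1220 of the 1235 were still called higher, against 512 of the 1842. Subtraction removes a larger part of the level from genes below ICO than from genes above it. This contrast therefore follows largely from how the classes were set and is no further evidence for either. Of 16820 genes that could be tested after subtraction, 16.5% were higher and 16.4% lower, the shares beside which list counts after subtraction stand. The source of the organoid transcripts was not tested.

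**Figure D1:**
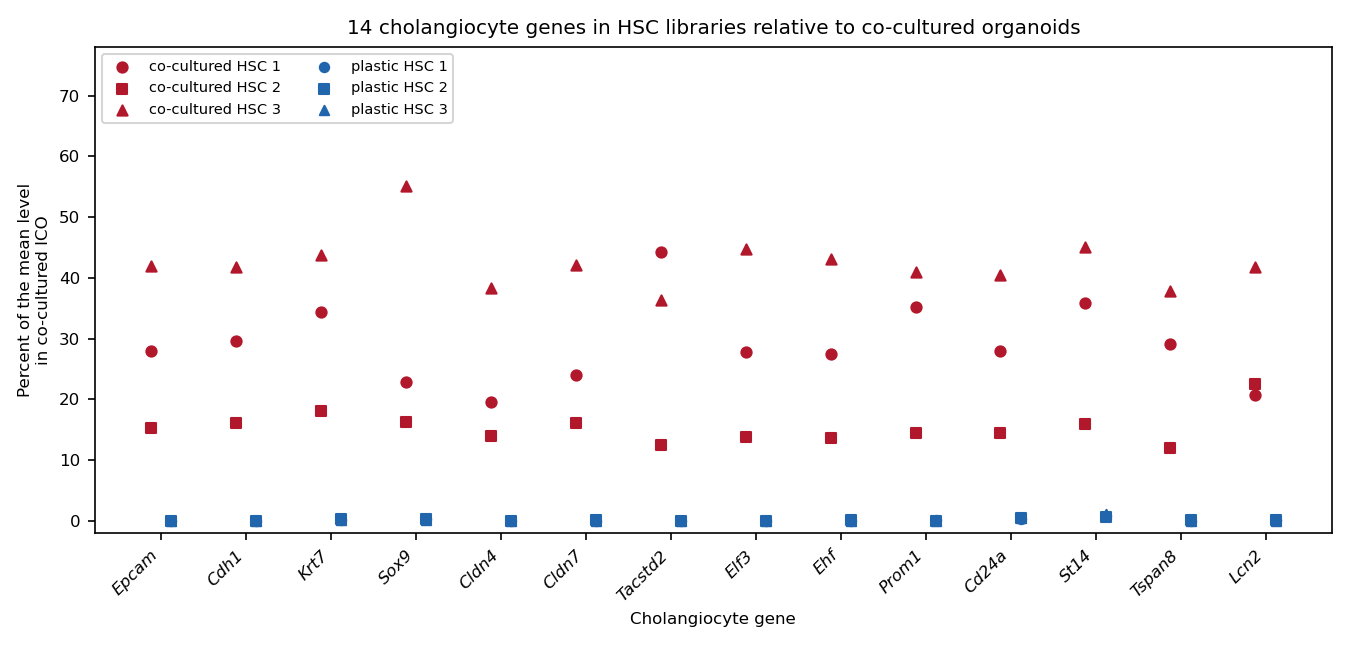
Level of each of 14 cholangiocyte genes in co-cultured HSC (red) and plastic HSC (blue) as a percentage of its mean level in co-cultured ICO, 1 marker shape per replicate. In co-cultured HSC the genes of each library lie around medians of 27.9%, 14.9% and 41.9%, and plastic HSC lie near 0, as the choice of genes required.

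Genes that HSC share with other mesenchymal cells were expressed in both groups. Des, Tcf21 and portal fibroblast genes are given further below, and these values do not tell HSC from portal fibroblasts. Dcn, a matrix proteoglycan of mesenchymal cells, had 4408, 6299 and 3857 CPM in co-cultured HSC, against 8498, 7032 and 4447 CPM in plastic HSC, and 7.55, 10.4 and 17 CPM in co-cultured ICO (adjusted p = 0.207 between the HSC groups). Pdgfrb, the pericyte receptor for PDGF, had 234, 283 and 145 CPM in co-cultured HSC, against 317, 329.99 and 333 CPM in plastic HSC (log2 fold change -0.58 ± 0.20, adjusted p = 0.0295). The Pdgfrb call was lost without co-cultured replicate 3 (adjusted p = 0.0613), without plastic replicate 2 or 3 (0.0532 and 0.0642) and after subtraction (0.572, at a fold change of -0.10). Pdgfra, the other PDGF receptor, had 214, 253 and 162 CPM in co-cultured HSC, against 252, 186 and 175 CPM in plastic HSC, and the groups overlapped (adjusted p = 0.942, and 0.0131 after subtraction). Ngfr and Reln, which mark quiescent HSC, lay far below their day 0 levels in both groups. Ngfr, the low-affinity neurotrophin receptor, had 1.02, 2.53 and 4.41 CPM in co-cultured HSC and 5.87, 5.04 and 4.75 CPM in plastic HSC, against 232, 227 and 211 CPM at day 0. Reln, a secreted glycoprotein, had 127, 137 and 125 CPM and 139, 112 and 61.8 CPM in the same 2 groups, against 2575, 2745 and 2371 CPM at day 0 (adjusted p = 0.0635 for Ngfr and 0.369 for Reln between the cultures). Ngfr passed the threshold as lower under RLE scaling (adjusted p = 0.0479), by DESeq2 (0.00888), in the fit of 18 libraries (0.0372), with the replicate block (0.0494) and without co-cultured replicate 3 (0.00821), and Reln as higher after subtraction (0.0187).

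The contractile apparatus was the list with the largest share of lower genes. Of 29 contractile and actin-associated genes tested, 23 were lower in co-cultured HSC and 1 was higher, against 19.6% and 22.9% of all genes, and their median log2 fold change was -1.72. After subtraction 20 were lower. For Acta2 and Tagln the levels in co-cultured HSC lay between those of plastic HSC and those of HSC alone in Matrigel. Acta2 (ENSMUSG00000035783), α-smooth muscle actin, the textbook marker of HSC activation, had 696, 734 and 469 CPM in co-cultured HSC, against 3952, 5288 and 4021 CPM in plastic HSC. It had 68.4, 0.462 and 3.75 CPM in HSC alone in Matrigel and 8.4, 3.95 and 6.04 CPM at day 0. The co-cultured and plastic libraries did not overlap, but the difference missed the threshold in the fit of all 12 HSC libraries (log2 fold change -2.81 ± 1.14, adjusted p = 0.0747) and passed it in fits of the 6 libraries (adjusted p = 1.27e-05) or of all 18 (0.0296). Tagln, an actin cross-linking protein, had 161, 166 and 158 CPM in co-cultured HSC, against 1120.5, 1791 and 1048 CPM in plastic HSC (log2 fold change -3.04 ± 0.79, adjusted p = 0.0117), and 21.3, 0.857 and 2.69 CPM in Matrigel alone. Its fold change after subtraction was -2.51 (adjusted p = 0.0646).

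Other genes of the contractile filaments were lower as well. Myl9, the regulatory light chain of smooth muscle myosin, had 106, 146 and 95.3 CPM in co-cultured HSC, against 1686, 1853 and 1546 CPM in plastic HSC (log2 fold change -3.88 ± 0.85, adjusted p = 0.00505). Tpm1, a tropomyosin of stress fibres, had 690.4, 625 and 449.5 CPM in co-cultured HSC, against 2664, 3405 and 3014 CPM in plastic HSC (log2 fold change -2.37 ± 0.21, adjusted p = 3.37e-06). No co-cultured library reached a plastic one for either gene. On the log2 scale Myh11, the smooth muscle myosin heavy chain, fell by 3.13 (adjusted p = 3.89e-05), as did Nexn, an actin filament binding protein, which fell by 3.30 (adjusted p = 6.84e-07). Lmod1, an actin nucleator of smooth muscle, had 0.64, 0.828 and 1.86 CPM in co-cultured HSC, against 34.5, 42.4 and 49.98 CPM in plastic HSC (log2 fold change -5.21 ± 0.56, adjusted p = 1.83e-05). Cnn1, calponin, fell by 2.37 (adjusted p = 0.0172), a call that was lost without co-cultured replicate 3 (0.0547), without plastic replicate 3 (0.051), after subtraction (0.0788, at a fold change of -1.87) and by DESeq2 (0.167). The 1 member that was higher was Csrp2, a LIM protein of smooth muscle, which had 134, 174 and 138 CPM in co-cultured HSC, against 22.2, 28.3 and 22.4 CPM in plastic HSC (log2 fold change 2.59 ± 0.46, adjusted p = 0.00125). Mrtfa, the actin-regulated cofactor of SRF, fell by 1.05 (adjusted p = 0.000913), while Mrtfb had 31.7, 24.7 and 35 CPM in co-cultured HSC and 27.8, 24.4 and 24 CPM in plastic HSC (adjusted p = 0.188).

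**Figure D2:**
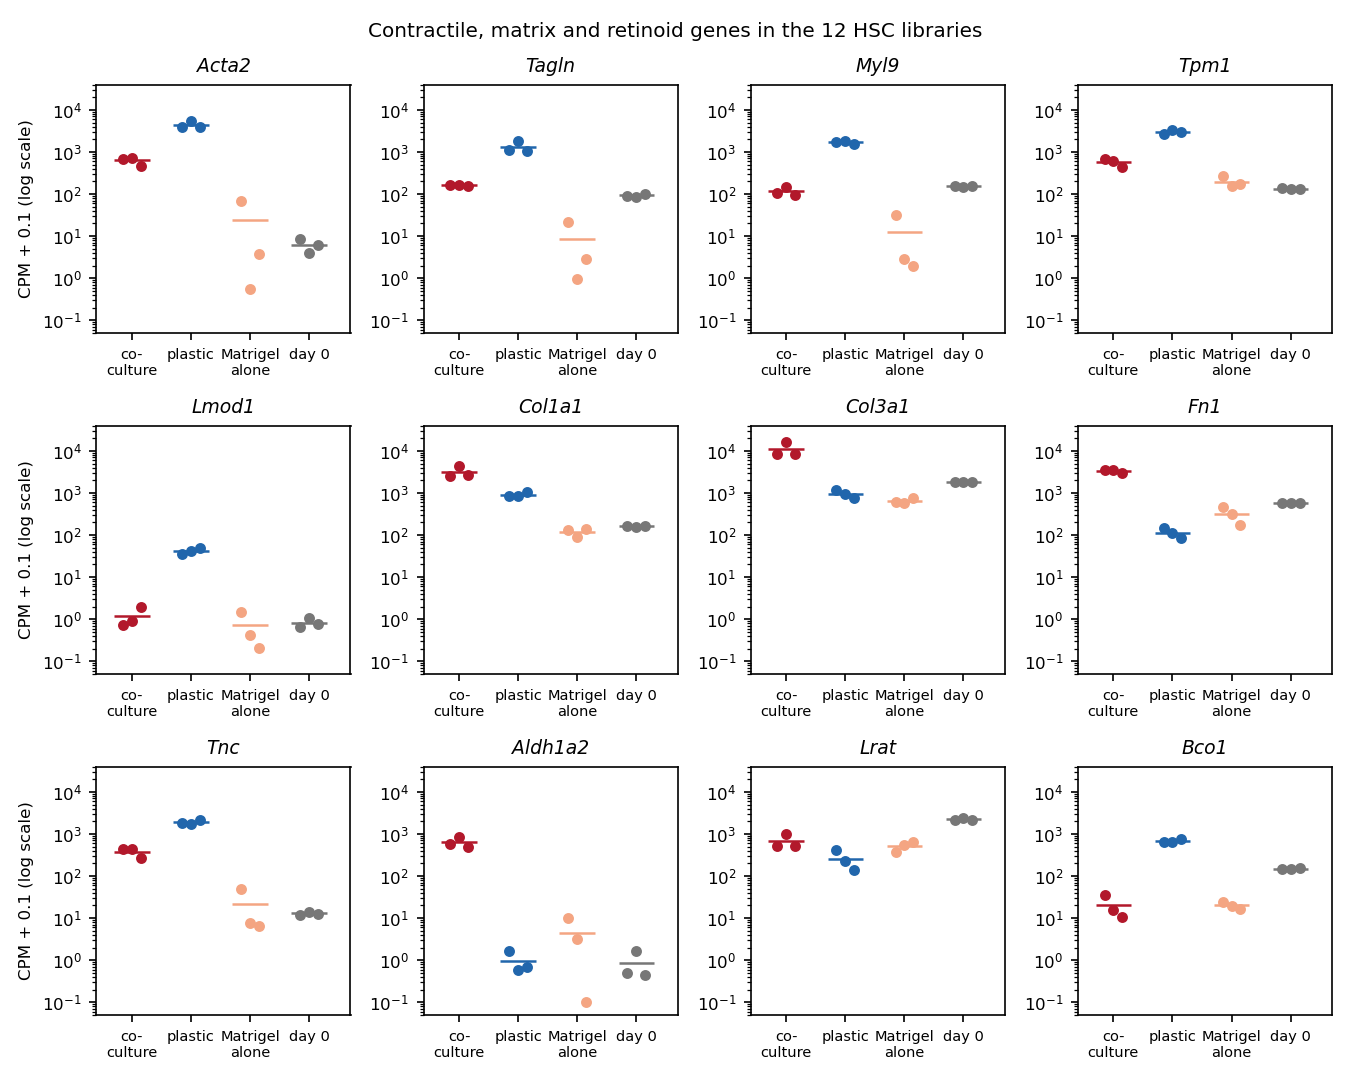
Levels of 12 genes in the 12 HSC libraries (CPM + 0.1, log scale), 1 point per library and a line at the group mean, with co-culture, plastic, Matrigel alone and day 0 from left to right. Acta2, Tagln, Myl9, Tpm1 and Lmod1 lie lower in co-culture than on plastic, Col1a1, Col3a1 and Fn1 higher, and Aldh1a2 is high in co-culture alone among the 4 groups.

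Promoters of the lower contractile genes were searched for the CArG box, the motif bound by SRF, in the 250 bases before each RefSeq start site (build GRCm38.p6, both strands). Only the strict form was counted, CC, then 6 bases that are each A or T, then GG. Of the 23 genes, 19 had a promoter in the table and 6 of these held the box (31.6%), against 439 of 27025 promoters in all (1.62%). None of the 4 contractile genes that were not called and had a promoter in the table held this strict form, Acta2 among them. Forms with another base were not searched for, so a promoter without a match may still hold a variant of the box. The list was picked for contractile and actin-associated genes and includes Srf and Mrtfa. A share above that of all promoters may stem from that choice and does not bear on the change between the cultures. The stretches around the box are shown because SRF links actin to transcription. The box is in capitals.
Myl9 (chr2:156775263-156775352, plus strand): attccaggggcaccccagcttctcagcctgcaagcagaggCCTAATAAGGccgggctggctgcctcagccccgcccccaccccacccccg
Fhl2 (chr1:43196808-43196897, minus strand): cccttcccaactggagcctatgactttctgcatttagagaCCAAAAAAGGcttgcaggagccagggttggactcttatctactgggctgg
Cnn2 (chr10:79988504-79988593, plus strand): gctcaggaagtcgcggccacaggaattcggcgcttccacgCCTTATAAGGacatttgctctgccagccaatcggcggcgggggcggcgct
Filip1l (chr16:57549140-57549229, plus strand): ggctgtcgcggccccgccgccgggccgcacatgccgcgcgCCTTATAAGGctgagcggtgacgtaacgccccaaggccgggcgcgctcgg
Vcl (chr14:20929148-20929220, plus strand): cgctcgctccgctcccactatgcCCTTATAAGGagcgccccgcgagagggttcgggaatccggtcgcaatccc
Srf (chr17:46556175-46556264, minus strand): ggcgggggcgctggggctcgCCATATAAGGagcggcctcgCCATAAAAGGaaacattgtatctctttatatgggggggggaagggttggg
Srf, which is known to regulate its own gene, held a pair of boxes, and the other 5 genes 1 each. A match is a description of letters and does not show that SRF was bound. Srf fell by 0.91 (adjusted p = 0.0213), but the call was lost without co-cultured replicate 2 (0.0676), without plastic replicate 2 (0.096) and after subtraction (0.0892, at a fold change of -0.73). On the log2 scale Fhl2, a LIM domain cofactor, fell by 2.40, Cnn2, a calponin, by 2.34, Filip1l by 1.80 and Vcl, vinculin of focal adhesions, by 1.31 (adjusted p = 0.0117, 3.73e-05, 9.57e-07 and 2.05e-06).

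Adhesion genes were called lower more often than higher. Of 29 integrin and focal adhesion genes, 15 were lower and 8 higher in co-cultured HSC (median -0.59), against 19.6% and 22.9% of all genes. The higher count was near that share, and it was 5 without co-cultured replicate 2. Itga4, the α4 integrin chain that binds fibronectin and VCAM1, had 0.896, 1.03 and 1.22 CPM in co-cultured HSC, against 62.9, 65.1 and 72.7 CPM in plastic HSC (log2 fold change -5.97 ± 0.22, adjusted p = 3.28e-09). Itga1, the α1 chain of a collagen receptor, had 139, 168 and 111 CPM in co-cultured HSC, against 520.1, 504 and 397 CPM in plastic HSC (log2 fold change -1.78 ± 0.18, adjusted p = 8.81e-06). Lims2, a LIM protein of focal adhesions, fell by 4.16 (adjusted p = 7.32e-05). Of the higher genes, Itga6, a laminin receptor chain, had 29.4, 7.34 and 21.2 CPM in co-cultured HSC and 1.06, 1.78 and 2.17 CPM in plastic HSC, and 38.1, 36.4 and 41.7 CPM in co-cultured ICO. Itga2 likewise lay below ICO in all 3 replicate numbers, and its call was lost after subtraction (adjusted p = 0.0041 before and 0.498 after).

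Against 19.6% and 22.9% of all genes, 10 of 24 genes known as YAP and TAZ targets were lower and 4 higher (median -0.47). The motif of their cofactor TEAD, GGAATG on either strand, stood in the promoters of 5 of the 7 lower genes in the RefSeq table (71.4%) and of 2 of the 8 genes not called, against 14.4% of all promoters. Among contractile genes it stood in 6 of the 19 lower ones and in 3 of the 4 not called. The YAP and TAZ list was made of known targets, so its share above all promoters may stem from the choice of list. Ccn2, a matricellular growth factor also called CTGF, had 625, 539 and 991 CPM in co-cultured HSC, against 4430.1, 5542 and 4069 CPM in plastic HSC (log2 fold change -2.71 ± 0.41, adjusted p = 0.000279), and 1764, 1852 and 1632 CPM in co-cultured ICO. Its fold change was -3.77 after subtraction (adjusted p = 0.0948) and -4.14 with the covariate (3.63e-07). F3, tissue factor, had 38.7, 20.6 and 37.7 CPM in co-cultured HSC, against 1032, 1009 and 1163 CPM in plastic HSC (log2 fold change -5.06 ± 0.52, adjusted p = 4.07e-05). Axl, a receptor tyrosine kinase, fell by 2.06 and Crim1, a membrane-bound BMP antagonist, fell by 2.34 (adjusted p = 8.35e-06 and 0.000127). Against these, Igfbp3, an IGF-binding protein, had 266, 419 and 313 CPM in co-cultured HSC, against 35.6, 31.8 and 41.6 CPM in plastic HSC (log2 fold change 3.18 ± 0.21, adjusted p = 2.3e-07).

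Collagens I and III were higher in co-cultured HSC while contractile genes were lower. Col3a1 (ENSMUSG00000026043) had 8352, 15872 and 8240.4 CPM in co-cultured HSC, against 1144, 946 and 762 CPM in plastic HSC (log2 fold change 3.49 ± 0.27, adjusted p = 8.17e-07). Col1a1 (ENSMUSG00000001506) had 2534, 4329 and 2633 CPM in co-cultured HSC, against 862, 858 and 1029.7 CPM in plastic HSC (log2 fold change 1.77 ± 0.21, adjusted p = 3.29e-05), and Col1a2 had 2114, 2677 and 1595 CPM in co-cultured HSC, against 481, 502 and 485 CPM in plastic HSC (log2 fold change 2.11 ± 0.18, adjusted p = 2.49e-06). Every co-cultured library exceeded every plastic library for these 3 genes, and co-cultured ICO had at most 48.4 CPM of Col3a1. HSC alone in Matrigel had 614, 588 and 749.7 CPM of Col3a1 and 133, 90.3 and 137 CPM of Col1a1. Col5a3, a minor chain of collagen V, had 48.6, 79.5 and 48.6 CPM in co-cultured HSC, against 3.1, 2.26 and 1.14 CPM in plastic HSC (log2 fold change 4.75 ± 0.41, adjusted p = 3.52e-06). Col5a2, another collagen V chain, went the other way, with 800.1, 1198 and 699.9 CPM in co-cultured HSC, against 1726, 1901 and 1781 CPM in plastic HSC (log2 fold change -1.02 ± 0.19, adjusted p = 0.000928, against an adjusted p of 0.146 in a fit of all 18 libraries).

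Over the list of 25 fibrillar collagen and collagen-processing genes, 11 were higher and 6 lower (median 0.20), against 22.9% and 19.6% of all genes. The number of lower genes was near its share. Of the 11, 10 exceeded co-cultured ICO in all 3 replicate numbers, and after subtraction the list held 11 higher and 3 lower. Bmp1, the procollagen C-proteinase, rose by 2.05 ± 0.14 and Loxl1, a lysyl oxidase, by 2.29 ± 0.29 (adjusted p = 4.26e-07 and 7.78e-05). The lysyl hydroxylases Plod1 and Plod2 rose by 0.69 ± 0.15 and 0.82 ± 0.14 (adjusted p = 0.0029 and 0.000534). Among the lower genes were the lysyl oxidases Loxl2, Loxl3 and Loxl4, of which Loxl4 had 16.3, 9.1 and 7.1 CPM in co-cultured HSC, against 29.7, 26 and 28.1 CPM in plastic HSC (log2 fold change -1.40 ± 0.27, adjusted p = 0.00113). The calls of Loxl2 and Loxl3 were lost after subtraction (fold changes -0.41 and -0.25, adjusted p = 0.079 and 0.0853), and that of Loxl4 with the organoid share as a covariate (0.0946). Lox, the founding member of that family, had 248, 509 and 332 CPM in co-cultured HSC, against 285, 271 and 265 CPM in plastic HSC, with overlapping groups (adjusted p = 0.447). Timp1, which blocks metalloproteinases, had 601, 902 and 680.3 CPM in co-cultured HSC and 631, 649.9 and 585 CPM in plastic HSC (adjusted p = 0.691), against 33.6, 9.1 and 24.2 CPM in Matrigel alone and 7.77, 3.4 and 3.64 CPM at day 0.

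Of 14 other collagens 7 were higher and 2 lower (median 1.55). Col15a1, a multiplexin of vessel and nerve basement membranes, had 24.6, 31.8 and 14.3 CPM in co-cultured HSC, against 0.33, 0 and 0.12 CPM in plastic HSC (log2 fold change 7.33 ± 0.66, adjusted p = 3.37e-06). Col6a3, a chain of microfibrillar collagen VI, had 98.1, 74.7 and 64.8 CPM in co-cultured HSC, against 14.7, 12.5 and 2.17 CPM in plastic HSC (log2 fold change 3.00 ± 0.52, adjusted p = 0.00131), and Col6a1 and Col6a2 were higher too. Col8a1, a short-chain collagen, had 15, 35.2 and 15.5 CPM in co-cultured HSC, against 288, 323 and 282 CPM in plastic HSC (log2 fold change -3.77 ± 0.55, adjusted p = 0.000444). Col14a1, a fibril-associated collagen, fell by 2.43 (adjusted p = 5.17e-06).

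Non-collagenous matrix genes divided. Of 36 matricellular, proteoglycan and microfibril genes, 14 were higher and 10 lower (median 0.20). Fn1, fibronectin, had 3502, 3522 and 2922 CPM in co-cultured HSC, against 147, 109 and 84.9 CPM in plastic HSC (log2 fold change 4.86 ± 0.32, adjusted p = 3.88e-07). It was also abundant in co-cultured ICO, at 2239, 1925 and 2054 CPM, and its fold change after subtraction was 5.07 (adjusted p = 0.0197). Sparcl1, a SPARC relative that quiescent HSC express, had 589.9, 736 and 411 CPM in co-cultured HSC, against 11, 7.64 and 5.83 CPM in plastic HSC (log2 fold change 6.14 ± 0.32, adjusted p = 4.84e-08), and 1152, 1198 and 1138 CPM at day 0. HSC alone in Matrigel had 215, 344 and 356 CPM of Sparcl1. Tnc, tenascin C, had 438, 429 and 265 CPM in co-cultured HSC, against 1828, 1709 and 2096 CPM in plastic HSC (log2 fold change -2.32 ± 0.66, adjusted p = 0.0174), and its adjusted p was 0.0922 after subtraction, at a fold change of -1.83, and 0.0647 without co-cultured replicate 3. Ogn, the proteoglycan osteoglycin, had 0, 1.4 and 0.896 CPM in co-cultured HSC, against 95.8, 106 and 86 CPM in plastic HSC (log2 fold change -6.73 ± 0.45, adjusted p = 6.84e-07). Fbln5, an elastic fibre protein, had 22.7, 32.8 and 30.3 CPM in co-cultured HSC, against 509, 543 and 482 CPM in plastic HSC (log2 fold change -4.17 ± 0.20, adjusted p = 1.89e-08). Postn, periostin, had 298, 261 and 164 CPM in co-cultured HSC, against 641, 652 and 734 CPM in plastic HSC (adjusted p = 6.93e-05). Prelp, a leucine-rich proteoglycan, fell by 2.28 (adjusted p = 5.67e-05). Spp1, osteopontin, had 5014, 5176 and 5374 CPM in co-cultured HSC and 149, 292 and 341 CPM in plastic HSC (log2 fold change 4.31 ± 0.44, adjusted p = 1.89e-05), but all co-cultured HSC libraries lay below their ICO partners at 6792, 9450.5 and 6513 CPM.

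Basement membrane genes split by chain. Of 19 tested, 9 were higher and 7 lower, and 5 were higher after subtraction. Both nidogen genes, Lama2 of laminin α2 and the collagen IV genes Col4a1, Col4a2 and Col4a5 were lower, while Col4a4 was higher and Col4a3 was not called. Nid2, nidogen 2, had 139.8, 259 and 99.9 CPM in co-cultured HSC, against 1286, 1327 and 1512 CPM in plastic HSC (log2 fold change -3.06 ± 0.33, adjusted p = 2.67e-05). On the log2 scale Nid1 fell by 1.26, Lama2 by 2.38 and Col4a1 by 1.04 (adjusted p = 4.16e-05, 5.12e-06 and 0.000759). The higher genes included Lama3 and Lamb3, laminin chains of epithelia. Lamb3 had 68.4, 41 and 94 CPM in co-cultured HSC, against 0.066, 0.336 and 0.241 CPM in plastic HSC, and 233, 238 and 215 CPM in co-cultured ICO. Lama3 also lay below ICO in all 3 replicate numbers, and its call was lost after subtraction (adjusted p = 0.0926).

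Matrix proteases had no common direction. Of 30 protease and inhibitor genes 13 were higher and 11 lower (median -0.02). Mmp9, gelatinase B, had 48.4, 83.8 and 46.6 CPM in co-cultured HSC, against 0.132, 0.336 and 0.601 CPM in plastic HSC (log2 fold change 7.33 ± 0.44, adjusted p = 1.1e-07), while co-cultured ICO had 1.26, 2.7 and 0.499 CPM. Serpine2, a protease inhibitor also called nexin 1, had 698, 972 and 517 CPM in co-cultured HSC, against 25.1, 18.9 and 26.8 CPM in plastic HSC (log2 fold change 4.94 ± 0.64, adjusted p = 0.000229). Plat, tissue plasminogen activator, had 728, 1030.3 and 738 CPM in co-cultured HSC, against 49.5, 36.6 and 31 CPM in plastic HSC (log2 fold change 4.40 ± 0.45, adjusted p = 3.48e-05). Collagenase and stromelysin genes divided, with Mmp13, Mmp3 and Mmp10 lower and Mmp8 and Mmp11 higher. Mmp13, the main rodent interstitial collagenase, had 0.64, 1.24 and 2.3 CPM in co-cultured HSC, against 156, 151 and 238 CPM in plastic HSC (log2 fold change -6.94 ± 0.53, adjusted p = 4.46e-06). Mmp10, a stromelysin, had 6.02, 13.6 and 6.53 CPM in co-cultured HSC, against 391, 347 and 491 CPM in plastic HSC (log2 fold change -5.54 ± 1.11, adjusted p = 0.00534).

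Of 34 genes of TGF-β and BMP signalling 12 were higher and 8 lower (median 0.42), against 22.9% and 19.6% of all genes. The number of lower genes was near its share. The lower count was 4 after subtraction, 5 without co-cultured replicate 1, 4 without co-cultured replicate 3, and 5 without plastic replicate 1 or 2. The ligand genes Tgfb1, Tgfb2 and Tgfb3 were not called. Fst, follistatin, an activin antagonist, had 136, 112 and 98.7 CPM in co-cultured HSC, against 2.77, 2.16 and 2.71 CPM in plastic HSC (log2 fold change 5.50 ± 0.70, adjusted p = 0.000182). Ltbp1, which tethers latent TGF-β to the matrix, had 25.3, 20.02 and 15.8 CPM in co-cultured HSC, against 85.3, 72.3 and 97.4 CPM in plastic HSC (log2 fold change -2.08 ± 0.20, adjusted p = 5.99e-06). Ltbp3, of the same family, rose by 2.83 ± 0.16 (adjusted p = 6.44e-08) and lay below co-cultured ICO in all 3 replicate numbers. Eng, the co-receptor endoglin, fell by 0.93 (adjusted p = 0.00213), a call that was lost with the organoid share as a covariate (0.288) and in a fit of all 18 libraries (0.0595).

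**Figure D3:**
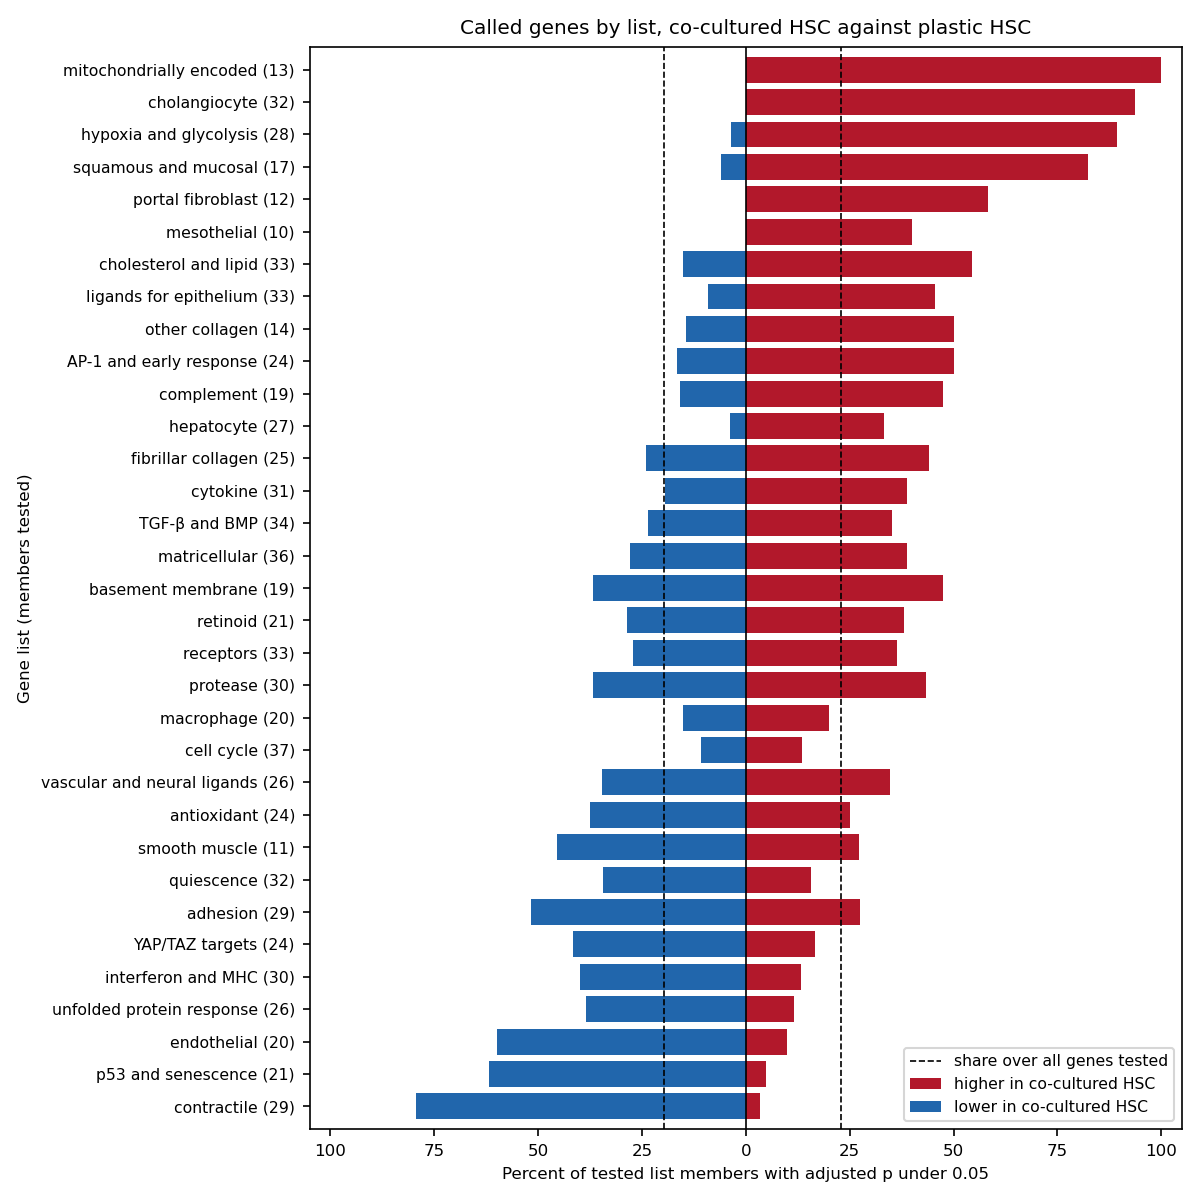
Percentage of tested members called higher (red, right) and lower (blue, left) in co-cultured HSC against plastic HSC for the 33 lists with at least 10 members tested, with dashed lines at the 22.9% and 19.6% of all genes. The contractile list extends farthest to the left, and the mitochondrially encoded, cholangiocyte and hypoxia lists farthest to the right.

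With the organoid share as a covariate the direction of the balance held in most lists, the contractile, hypoxia and p53 and senescence lists among them. It also held in the adhesion list (5 higher and 12 lower) and the YAP and TAZ list (3 and 12). The same was true of the fibrillar collagen list (11 and 1) and the epithelial ligand list (12 and 2). Counts became even in the quiescence, matricellular and protease lists, and turned in the cell cycle list (0 and 3). Of 29 contractile genes 2 were higher and 19 lower, and of 28 hypoxia and glycolysis genes 18 were higher and 1 lower. Of 21 p53 and senescence genes 0 were higher and 12 lower. Over all genes the covariate left 12% higher and 11.1% lower, against 22.9% and 19.6% without it. Among list counts that moved by more than 1.5 times, lower genes numbered 5 in the quiescence list, 1 in the fibrillar collagen list, 4 in the receptor list, 4 in the TGF-β list, 3 in the cytokine list, 4 in the interferon list, 4 in the endothelial list, 2 in the immediate early list, 3 in the lipid list and none in the macrophage and hepatocyte lists. Higher genes numbered 9 in the matricellular list, 5 in the adhesion list, 7 in the cytokine list, 10 in the lipid list, 7 in the immediate early list, 8 in the squamous and mucosal list, 1 each in the smooth muscle, unfolded protein and endothelial lists and none in the cell cycle and lymphocyte lists.

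Of 21 genes of retinoid metabolism 8 were higher and 6 lower (median 0.10), and 5 were higher after subtraction. Aldh1a2 (ENSMUSG00000013584), which oxidises retinal to retinoic acid, had 563, 830.2 and 498 CPM in co-cultured HSC, against 1.52, 0.48 and 0.601 CPM in plastic HSC (log2 fold change 9.54 ± 1.16, adjusted p = 0.000179). Co-cultured ICO had 7.21, 6.08 and 9.59 CPM, HSC alone in Matrigel had 10.03, 3.1 and 0 CPM and HSC at day 0 had 0.392, 1.57 and 0.343 CPM, so the gene was abundant in co-cultured HSC alone among these groups. Aldh1a1, which catalyses the same step, went the other way, with 2.69, 8.07 and 5.89 CPM in co-cultured HSC, against 283, 309 and 267 CPM in plastic HSC (log2 fold change -5.64 ± 0.26, adjusted p = 1.89e-08). Bco1, which cleaves β-carotene to retinal, had 34.4, 15.6 and 10.7 CPM in co-cultured HSC, against 656, 654 and 769 CPM in plastic HSC (log2 fold change -5.13 ± 0.38, adjusted p = 2.14e-06). Cyp26b1, which degrades retinoic acid, fell by 3.55 (adjusted p = 5.24e-05). Lrat, which esterifies retinol for storage, had 519.6, 1018 and 526 CPM in co-cultured HSC, against 405, 223 and 139 CPM in plastic HSC (log2 fold change 1.41 ± 0.37, adjusted p = 0.00967), with every co-cultured library above every plastic one and all of them below the 2196, 2389 and 2147 CPM of day 0. HSC alone in Matrigel had 377, 545 and 632 CPM of Lrat, which overlapped the co-cultured libraries. Stra6 and Rbp4, which take up and carry retinol, were called higher, with 32.1, 19.6 and 40.8 CPM of Stra6 in co-cultured HSC and 119, 107 and 87.8 CPM in co-cultured ICO. Rbp4 had 12, 7.65 and 16.4 CPM in co-cultured HSC and 33, 33 and 31.2 CPM in co-cultured ICO, also below ICO throughout.

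Of 32 genes of quiescent HSC 11 were lower and 5 higher (median -0.09), and 9 were lower and 9 higher after subtraction. Tcf21, a transcription factor of HSC and fibroblast precursors, had 24.1, 38.9 and 31.5 CPM in co-cultured HSC, against 88.7, 116 and 97.6 CPM in plastic HSC (log2 fold change -1.68 ± 0.20, adjusted p = 2.67e-05). It had 371, 359 and 375 CPM at day 0. Des, desmin, had 89.99, 134 and 77.9 CPM in co-cultured HSC, against 256, 339 and 358 CPM in plastic HSC (log2 fold change -1.67 ± 0.19, adjusted p = 2.21e-05). Of 11 genes of smooth muscle and pericytes, 5 were lower and 3 higher, against 1 higher without co-cultured replicate 1 or 2 or plastic replicate 2. Abcc9 and Kcnj8, the subunits of the pericyte potassium channel, were called higher, with 139, 149 and 135 CPM in co-cultured HSC, against 87.9, 58.4 and 16.9 CPM in plastic HSC for Abcc9. Both calls were lost without co-cultured replicate 1 (adjusted p = 0.0666 for Abcc9 and 0.0565 for Kcnj8), without co-cultured replicate 2 (0.0754 and 0.0716) or without plastic replicate 2 (0.0713 and 0.0698), and that of Abcc9 also without co-cultured replicate 3 (0.0643).

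Of 33 ligands that act on epithelium, 15 were higher and 3 lower in co-cultured HSC (median 1.37), and 15 were higher after subtraction. Of the 15, 8 lay above ICO in all 3 replicate numbers. Igf1, insulin-like growth factor 1, had 109, 166 and 114 CPM in co-cultured HSC, against 17.7, 10.5 and 4.69 CPM in plastic HSC (log2 fold change 3.56 ± 0.41, adjusted p = 7.5e-05), and at most 0.515 CPM in co-cultured ICO. Wnt4 had 71, 97 and 76.8 CPM in co-cultured HSC, against 12.8, 9.17 and 4.33 CPM in plastic HSC (log2 fold change 3.21 ± 0.34, adjusted p = 2.26e-05). Wnt2 and Wnt11, further Wnt ligands, rose by 3.07 ± 0.36 and 3.48 ± 0.71 (adjusted p = 2.66e-05 and 0.0019). Dkk2, a secreted Wnt modulator, had 15.7, 27.1 and 10.6 CPM in co-cultured HSC, against 0.858, 0.0961 and 0.481 CPM in plastic HSC (log2 fold change 5.24 ± 0.72, adjusted p = 9.67e-05). Mdk, the heparin-binding growth factor midkine, had 10.2, 22.9 and 15.1 CPM in co-cultured HSC, against 0.66, 0.913 and 0.842 CPM in plastic HSC (log2 fold change 4.29 ± 0.39, adjusted p = 3.42e-06). Fgf7, a mesenchymal growth factor for epithelium, rose by 2.57 ± 0.57 (adjusted p = 0.00268).

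Hgf, the ligand of the epithelial receptor Met, did not pass the test, with 378, 603 and 378 CPM in co-cultured HSC, against 507, 389 and 230.2 CPM in plastic HSC (log2 fold change 0.25 ± 0.26, adjusted p = 0.462, and adjusted p = 0.0222 after subtraction). Rspo3, a Wnt-enhancing ligand of Lgr receptors, had 70.5, 142 and 90.9 CPM in co-cultured HSC, against 256, 246 and 149.7 CPM in plastic HSC (log2 fold change -1.12 ± 0.26, adjusted p = 0.00455, and adjusted p = 0.342 with the organoid share as a covariate). Both genes were near 0 in co-cultured ICO, at 0, 0.484 and 1.25 CPM and 0.229, 0.277 and 0.449 CPM. HGF and RSPO3 protein were, per the labels, also part of the culture medium. Ereg, an EGF receptor ligand, had 153, 231 and 151 CPM in co-cultured HSC, against 587, 607 and 593 CPM in plastic HSC (log2 fold change -1.75 ± 0.31, adjusted p = 0.000944). The EGF family members Areg, Btc and Hbegf were called higher but lay below ICO in all 3 replicate numbers, and the adjusted p after subtraction was 0.0594 for Btc and 0.892 for Hbegf. Gas6, the ligand of Axl, had 224, 148 and 398 CPM in co-cultured HSC, against 14.9, 7.45 and 13.1 CPM in plastic HSC (log2 fold change 4.44 ± 0.40, adjusted p = 1.42e-05), and 749.9, 714 and 843 CPM in co-cultured ICO.

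Vascular and neural ligands were divided, with 9 of 26 higher and 9 lower. After subtraction 3 were higher and 9 lower. Bdnf, a neurotrophin, had 13.6, 14.8 and 12.8 CPM in co-cultured HSC, against 294, 361 and 351 CPM in plastic HSC (log2 fold change -4.62 ± 0.32, adjusted p = 8.54e-07). Sema3a, an axon repellent, fell by 3.60 (adjusted p = 2.99e-08). Slit3, a ligand of Robo receptors, had 232, 276 and 165 CPM in co-cultured HSC, against 11.6, 6.87 and 9.98 CPM in plastic HSC (log2 fold change 4.56 ± 0.40, adjusted p = 1.09e-05), with 2.14, 0.725 and 3.98 CPM in Matrigel alone. The increase of Vegfa, the endothelial growth factor, was 2.45 ± 0.29 (adjusted p = 3.23e-05), at 28.2, 40.9 and 56.1 CPM in co-cultured HSC, 7.19, 8.98 and 6.56 CPM in plastic HSC and 33.7, 42.3 and 35.9 CPM in co-cultured ICO. Pdgfc and Sema3c lay below ICO in all 3 replicate numbers, and both calls were lost after subtraction (adjusted p = 0.204 and 0.504).

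Of 33 receptors 12 were higher and 9 lower, against 22.9% and 19.6% of all genes. After subtraction 5 were lower, near the 16.4% of all genes. Ptger3, a prostaglandin E2 receptor, had 39.6, 63.1 and 38 CPM in co-cultured HSC, against 1.19, 1.44 and 1.86 CPM in plastic HSC (log2 fold change 4.95 ± 0.48, adjusted p = 6.96e-06). Receptors for lipid mediators went both ways, since Ptger3 and S1pr3 were higher and Lpar1, S1pr1 and S1pr2 lower. Agtr1a, the angiotensin II receptor, had 90.6, 137 and 96.7 CPM in co-cultured HSC, against 436, 387 and 311 CPM in plastic HSC (log2 fold change -1.82 ± 0.21, adjusted p = 2.52e-05). Lpar1, a lysophosphatidic acid receptor, and S1pr1, a sphingosine phosphate receptor, fell by 2.07 and 3.03 (adjusted p = 9.23e-06 and 0.000605). Lgr5, a receptor of epithelial progenitors, had 85.9, 18.1 and 65.8 CPM in co-cultured HSC and 0.198, 0 and 0.12 CPM in plastic HSC, below the 157, 119.95 and 146 CPM of co-cultured ICO.

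Among 31 cytokine and chemokine genes 12 were higher and 6 lower (median 0.44), the latter near the 19.6% of all genes. After subtraction 5 and 4 of 29 were, close to the shares over all genes. Csf1, the macrophage growth factor, had 89.4, 136 and 83.8 CPM in co-cultured HSC, against 1781, 1643 and 2076 CPM in plastic HSC (log2 fold change -4.17 ± 0.22, adjusted p = 3.63e-08). Tnfsf18, a TNF family ligand, had 0, 0.155 and 0 CPM in co-cultured HSC, against 26.4, 44.5 and 32.1 CPM in plastic HSC, 505-fold lower in summed counts (exact 95% interval 172 to 2449, counting error only). Il33, an alarmin, had 201, 351 and 191 CPM in co-cultured HSC, against 20.9, 11.2 and 7.1 CPM in plastic HSC (log2 fold change 4.23 ± 0.42, adjusted p = 2.82e-05), and 29.5, 27.2 and 33.4 CPM in co-cultured ICO. Cxcl5, a neutrophil chemokine, had 38, 59.1 and 121 CPM in co-cultured HSC and 2.64, 2.35 and 1.5 CPM in plastic HSC (log2 fold change 5.05 ± 0.90, adjusted p = 0.00165), but its fold change turned to -1.95 after subtraction (adjusted p = 0.166), with co-cultured ICO at 331, 388 and 353 CPM. Of 30 interferon and antigen presentation genes 12 were lower and 4 higher (median -0.41). Ifit2, an interferon-induced gene, had 3.33, 7.76 and 4.67 CPM in co-cultured HSC, against 26.7, 30.5 and 26.9 CPM in plastic HSC (log2 fold change -2.38 ± 0.23, adjusted p = 5.99e-06), and Tap1, the peptide transporter, fell by 1.00 (adjusted p = 0.000251).

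Of 19 complement genes 9 were higher and 3 lower, against 22.9% and 19.6% of all genes, with the lower count near its share. C3, the central component, had 158, 100.1 and 189 CPM in co-cultured HSC, against 0.726, 1.39 and 1.02 CPM in plastic HSC (log2 fold change 7.10 ± 0.67, adjusted p = 2.98e-05), and 465, 371 and 406 CPM in co-cultured ICO. Masp1, a lectin pathway protease that HSC express, had 312, 445 and 349.8 CPM in co-cultured HSC, against 2122, 1857 and 1742 CPM in plastic HSC (log2 fold change -2.38 ± 0.20, adjusted p = 2.05e-06). Cfi, complement factor I, was called higher at 16, 11 and 51.4 CPM in co-cultured HSC and 0.132, 0.528 and 0.601 CPM in plastic HSC, and its fold change was -5.63 after subtraction (adjusted p = 0.427).

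Hypoxia and glycolysis genes moved mostly together. Of 28 tested, 25 were higher and 1 lower in co-cultured HSC (median 1.58, against 0.08 over all genes). After subtraction 19 were higher. Most of these genes were also expressed in organoids, and 4 of the 25 exceeded co-cultured ICO in all 3 replicate numbers. Those 4 were Slc16a3, Eno2, Pfkfb4 and Egln1, which were chosen for description after their values were seen. Slc16a3, the lactate exporter MCT4, had 147, 329 and 267 CPM in co-cultured HSC, against 8.05, 9.85 and 13.5 CPM in plastic HSC (log2 fold change 4.55 ± 0.61, adjusted p = 0.000271), and 114, 129 and 127 CPM in co-cultured ICO. Eno2, an enolase, had 57.5, 74.2 and 50.8 CPM in co-cultured HSC, against 5.68, 9.99 and 4.15 CPM in plastic HSC (log2 fold change 3.18 ± 0.27, adjusted p = 2.14e-06), and 5.44, 5.53 and 4.2 CPM in ICO. Pfkfb4, which sets the level of the glycolytic activator fructose 2,6-bisphosphate, had 24.5, 33.3 and 22.1 CPM in co-cultured HSC, against 4.95, 5.67 and 6.38 CPM in plastic HSC (log2 fold change 2.22 ± 0.22, adjusted p = 6.25e-06). Egln1, the main HIF prolyl hydroxylase, rose by 0.75 ± 0.21 (adjusted p = 0.0119). The Egln1 call was lost without co-cultured replicate 3 (0.0566) and without plastic replicate 1 or 3 (0.0548 and 0.0584).

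Further HIF targets were higher. Egln3, Ndrg1, Car9, Pdk1 and Aldoa lay below ICO in all 3 replicate numbers. Slc2a1 exceeded ICO in 1 replicate number and Pgam1 in 2, and Tpi1 was not among the genes above ICO in all 3. Egln3, an inducible HIF prolyl hydroxylase, had 76.8, 52.2 and 112 CPM in co-cultured HSC, against 0.66, 0.721 and 0.18 CPM in plastic HSC (log2 fold change 7.22 ± 1.17, adjusted p = 0.000948), and 227, 238 and 217 CPM in co-cultured ICO. Ndrg1, a stress-response gene, had 689.6, 536 and 891 CPM in co-cultured HSC, against 17.9, 9.51 and 5.59 CPM in plastic HSC (adjusted p = 5.08e-06). After subtraction the fold changes of Egln3 and Ndrg1 were 5.57 and 5.43 (adjusted p = 0.000557 and 1.33e-05). Car9, a carbonic anhydrase, had 12.9, 10.03 and 25.1 CPM in co-cultured HSC and 0.066, 0.0961 and 0.782 CPM in plastic HSC (log2 fold change 5.65 ± 0.85, adjusted p = 0.00023). Pdk1, which diverts pyruvate from mitochondria, rose by 4.40 ± 0.52, and Slc2a1, the glucose transporter GLUT1, by 1.48 ± 0.21 (adjusted p = 8.95e-05 and 0.000135). The glycolytic enzymes Aldoa, Tpi1 and Pgam1 rose by 0.94 ± 0.14, 1.68 ± 0.18 and 0.93 ± 0.17 (adjusted p = 0.000169, 1.42e-05 and 0.000782). Ndufa4l2, a HIF-induced mitochondrial protein outside the list, had 21.1, 65 and 60.8 CPM in co-cultured HSC, against 0.132, 0.288 and 0 CPM in plastic HSC (log2 fold change 8.26 ± 0.66, adjusted p = 2.47e-06), and at most 0.35 CPM in ICO. The single lower member was Adm, the vasodilator peptide adrenomedullin, at 109, 112 and 87.1 CPM in co-cultured HSC, against 1408, 1517 and 1522 CPM in plastic HSC (log2 fold change -3.86 ± 0.14, adjusted p = 3.28e-09). HSC alone in Matrigel had 19.3, 11.1 and 2.52 CPM of Slc16a3 and 157, 168 and 169 CPM of Adm.

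**Figure D4:**
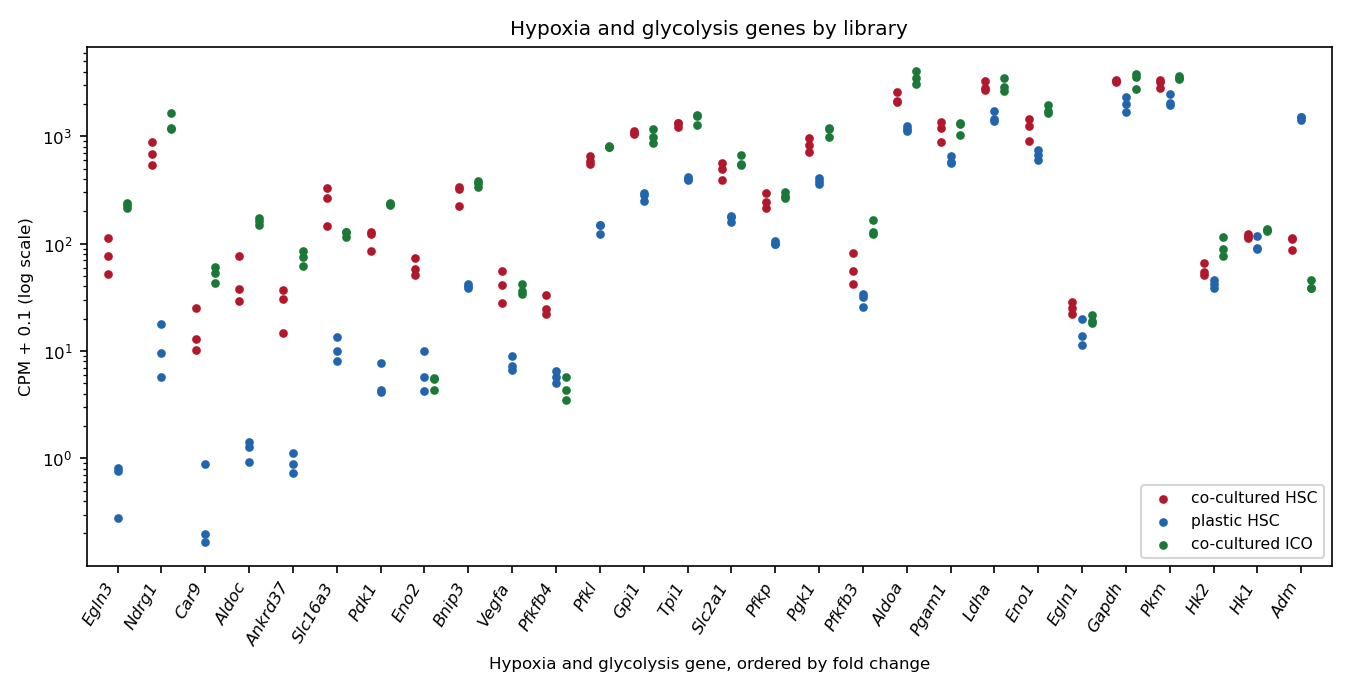
Levels of 28 hypoxia and glycolysis genes (CPM + 0.1, log scale) ordered by fold change, with 3 points each for co-cultured HSC (red), plastic HSC (blue) and co-cultured ICO (green). Co-cultured HSC lie above plastic HSC for 25 called genes, mostly at or below ICO, and Adm at the right end lies lower.

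The 250 bases before the RefSeq start site were searched on both strands for ACGTG or GCGTG, the core of the HIF response element, a search added after the values were seen. Of the 25 higher genes 24 had a promoter in the table, and 21 of these held the motif (87.5%), against 41.5% of all promoters and 73.7% of the 19 lower contractile genes. Adm, the lower gene, held it too, as did Hk1 and Hk2, which were not called. The list was picked for hypoxia and glycolysis genes, so its share above all promoters may stem from that choice. The stretches of the genes that exceeded ICO and held the motif are shown because their levels in co-cultured HSC lay above those of the organoids, with the motif in capitals.
Slc16a3 (chr11:120949013-120949066, plus strand): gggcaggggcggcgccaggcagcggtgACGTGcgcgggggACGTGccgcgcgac
Pfkfb4 (chr9:108991745-108991829, plus strand): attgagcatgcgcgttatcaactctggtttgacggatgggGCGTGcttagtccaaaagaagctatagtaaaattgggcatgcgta
Egln1 (chr8:124949278-124949362, minus strand): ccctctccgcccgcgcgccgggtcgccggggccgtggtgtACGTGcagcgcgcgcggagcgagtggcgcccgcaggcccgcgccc
Slc16a3 held the motif at 2 places next to its start site.

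Of 21 genes of the p53 response and senescence 13 were lower, 1 was higher and 7 were not called (median -1.25), and 3 were higher without co-cultured replicate 1. The higher gene was Cdkn2b, a cell cycle inhibitor. Its call was lost after subtraction (adjusted p = 0.266) and with the organoid share as a covariate (0.46). Cdkn1a, the cell cycle inhibitor p21, had 219.9, 311 and 301 CPM in co-cultured HSC, against 1071, 1143 and 1217 CPM in plastic HSC (log2 fold change -2.06 ± 0.20, adjusted p = 5.43e-06). Mdm2, the ubiquitin ligase of p53, had 116, 134 and 122 CPM in co-cultured HSC, against 422, 396 and 474 CPM in plastic HSC (log2 fold change -1.81 ± 0.13, adjusted p = 5.98e-07). Eda2r, a TNF receptor family member, had 14, 19.8 and 17.3 CPM in co-cultured HSC, against 140.4, 129 and 144 CPM in plastic HSC (log2 fold change -3.02 ± 0.34, adjusted p = 3.46e-05), and Fas, the death receptor, fell by 2.72 (adjusted p = 6.54e-05). No co-cultured library reached a plastic library for Cdkn1a, Mdm2, Eda2r or Fas.

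Cell cycle genes showed no common direction. Of 37 tested 5 were higher and 4 lower, 13.5% and 10.8%, both below the shares over all genes. The counts were 10 higher and 6 lower in the fit of the 6 libraries, in which 22.6% and 20.6% of all genes were called, and 7 higher and 1 lower after subtraction. They were 2 higher and 7 lower without co-cultured replicate 2, and 2 to 4 higher and 2 to 3 lower when any other library was left out. Mki67, the proliferation marker, had 33.9, 29.5 and 23.9 CPM in co-cultured HSC, against 16, 21.7 and 13.4 CPM in plastic HSC (log2 fold change 0.76 ± 0.28, adjusted p = 0.0395). That call was lost without co-cultured replicate 1 or 2 (adjusted p = 0.129 and 0.0861) and without plastic replicate 1 or 3 (0.121 and 0.149). It was also lost in the fit of 18 libraries (0.0618) and with the organoid share as a covariate, where the fold change was 0.31 (0.61). Ccnb2, a mitotic cyclin, had 73.5, 84.7 and 52.9 CPM in co-cultured HSC, against 27.9, 25.2 and 31.2 CPM in plastic HSC (log2 fold change 1.31 ± 0.34, adjusted p = 0.00865, and 0.204 with the organoid share as a covariate), while Rrm2, a ribonucleotide reductase subunit of S phase, had 76.8, 119 and 76.6 CPM in co-cultured HSC, against 234, 209.7 and 246 CPM in plastic HSC (log2 fold change -1.35 ± 0.31, adjusted p = 0.00459).

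Of 24 immediate early genes tested 12 were higher and 4 lower. After subtraction 4 were higher and 4 lower, close to the shares of 16.5% and 16.4% over all genes. Egr2, a zinc finger factor, had 226, 328 and 277 CPM in co-cultured HSC, against 69.2, 61.4 and 29 CPM in plastic HSC (log2 fold change 2.36 ± 0.33, adjusted p = 0.000201) and exceeded ICO in all 3 replicate numbers, with a fold change of 2.54 after subtraction (adjusted p = 0.108). Fosb, an AP-1 subunit, had 103, 111 and 168 CPM in co-cultured HSC, 10.6, 9.94 and 3.37 CPM in plastic HSC and 373, 337 and 300.2 CPM in co-cultured ICO (adjusted p = 5.32e-06 before subtraction and 0.105 after). Dusp1, a MAP kinase phosphatase, fell by 0.85 (adjusted p = 0.00254, and 0.129 with the organoid share as a covariate).

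Lipid synthesis genes were mostly higher. Of 33 genes of cholesterol and lipid metabolism 18 were higher and 5 lower (median 0.62), and 16 and 3 after subtraction. Scd1, a fatty acid desaturase, had 248, 395 and 240.2 CPM in co-cultured HSC, against 32.1, 38 and 38.2 CPM in plastic HSC (log2 fold change 3.01 ± 0.57, adjusted p = 0.00214), and 16.4, 9.13 and 8.89 CPM in co-cultured ICO. Scd2 rose by 1.74 ± 0.17 and Fdft1, squalene synthase, by 1.61 ± 0.18 (adjusted p = 5.08e-06 and 2.21e-05). Plin2, a coat protein of lipid droplets, had 172, 178 and 165 CPM in co-cultured HSC, against 342, 339 and 421 CPM in plastic HSC (log2 fold change -1.11 ± 0.13, adjusted p = 2.59e-05). Cd36, a fatty acid transporter that macrophages also express, had 0, 0.414 and 0.64 CPM in co-cultured HSC, against 5.81, 11.7 and 30.1 CPM in plastic HSC (log2 fold change -5.25 ± 0.81, adjusted p = 0.0006). Of 26 genes of the unfolded protein and amino acid responses 10 were lower and 3 higher, against 19.6% and 22.9% of all genes. Chac1, a glutathione-degrading enzyme induced by ATF4, had 21.4, 33.9 and 34.7 CPM in co-cultured HSC, against 132, 161 and 120.2 CPM in plastic HSC (log2 fold change -2.20 ± 0.21, adjusted p = 5.83e-06). Psph and Hmox1 were lower as well: Psph, the last enzyme of serine synthesis, fell by 1.16 and Hmox1, haem oxygenase, fell by 1.89 (adjusted p = 4.6e-05 and 2.44e-06).

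Of 24 antioxidant genes, the list of Hmox1, 9 were lower and 6 higher, against 19.6% and 22.9% of all genes. The number of higher genes was near its share. Txnrd1, thioredoxin reductase, had 167, 188 and 132 CPM in co-cultured HSC, against 799, 798 and 1100.3 CPM in plastic HSC (log2 fold change -2.48 ± 0.19, adjusted p = 9.6e-07), and Sod3, an extracellular superoxide dismutase, fell by 2.26 (adjusted p = 5.56e-06). Mt2, a metallothionein, had 67.8, 129.97 and 121 CPM in co-cultured HSC, against 29.9, 28.6 and 20.6 CPM in plastic HSC (log2 fold change 2.00 ± 0.27, adjusted p = 0.00013). Gsta4, a glutathione transferase, was called higher, but its fold change was -0.56 after subtraction (adjusted p = 0.805). All 13 mitochondrially encoded genes were higher (median 1.71), and their summed share of counts was 6.86%, 7.17% and 8.15% in co-cultured HSC, against 2.50%, 2.26% and 1.81% in plastic HSC. It was 5.22%, 6.83% and 9.20% in co-cultured ICO and 5.37%, 8.60% and 5.07% in HSC alone in Matrigel. All 13 genes were still higher after subtraction of the organoid share (median 1.65) and with that share as a covariate. The part of organoid transcripts in the mitochondrial share of counts was not tested further.

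The largest changes lay partly outside these lists. Aoc1, a diamine oxidase that degrades histamine, had 124, 243 and 189 CPM in co-cultured HSC and no counts in plastic HSC, at least 3247-fold higher with plastic HSC set to 3 counts over the group. Co-cultured ICO had 13.4, 7.67 and 15.1 CPM. Arg1, the arginase of the urea cycle, had 140.4, 269 and 95.9 CPM in co-cultured HSC, against 0.066, 0.48 and 0.12 CPM in plastic HSC (log2 fold change 9.37 ± 0.64, adjusted p = 2.32e-06), and 0.401, 3.32 and 3 CPM in co-cultured ICO. HSC libraries at day 0, in which the hepatocyte list summed to between 29398 and 30600.00 CPM, had 537, 529 and 594 CPM of Arg1. Apln, the peptide ligand apelin, had 117, 201 and 112 CPM in co-cultured HSC, against 0.792, 0.672 and 0.421 CPM in plastic HSC (log2 fold change 7.80 ± 0.42, adjusted p = 7.44e-08). Igfbp5, an IGF-binding protein, had 49.2, 52 and 40.7 CPM in co-cultured HSC, against 0.33, 0 and 0 CPM in plastic HSC (log2 fold change 8.81 ± 0.74, adjusted p = 4.22e-06). Chl1, a neural cell adhesion molecule, had 21.1, 32.2 and 16.1 CPM in co-cultured HSC, against 0, 0.0961 and 0 CPM in plastic HSC, 639-fold higher in summed counts (exact 95% interval 176 to 5281). Nppc, the C-type natriuretic peptide, had 6.78, 33.9 and 12.9 CPM in co-cultured HSC, against 0.066, 0 and 0.12 CPM in plastic HSC, 373-fold higher (127 to 1809.9). Both intervals cover counting error only. Defa29 and Cstdc4 belong to families of near-identical genes, so their values are uncertain. They had 15.7, 20.9 and 13.1 CPM and 21, 20.6 and 17.9 CPM in co-cultured HSC, against 0 CPM in every plastic library for Defa29 and 0.066, 0.144 and 0 CPM in plastic HSC for Cstdc4. All of these genes exceeded ICO in all 3 replicate numbers.

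Among the largest decreases, Slc26a7, an anion exchanger, had 0.256, 0 and 0 CPM in co-cultured HSC, against 46.7, 47.7 and 56.7 CPM in plastic HSC, or 1075-fold lower in summed counts (exact 95% interval 297 to 8883). Lmcd1, a LIM domain protein, had 3.71, 4.24 and 6.78 CPM in co-cultured HSC, against 402, 415 and 417 CPM in plastic HSC (log2 fold change -6.37 ± 0.87, adjusted p = 0.00034). Slc1a6, a glutamate transporter, had 0, 0.259 and 0.384 CPM in co-cultured HSC, against 28.5, 36 and 25 CPM in plastic HSC (log2 fold change -6.87 ± 0.47, adjusted p = 3.32e-07). Rasgrp3, a Ras activator, had 0, 0.103 and 0.064 CPM in co-cultured HSC, against 14.5, 14.2 and 13.1 CPM in plastic HSC, 198-fold lower (67.6 to 964). For Ptchd4 the log2 fold change was -6.72 (adjusted p = 0.000396). Sprr2h, of a family whose reads may be divided among near-identical members, had no counts in co-cultured HSC and 19.3, 22.9 and 31.4 CPM in plastic HSC, at least 350.03-fold lower with co-cultured HSC set to 3 counts over the group. For all but Rasgrp3, the 3 libraries of HSC at day 0 held under 3 CPM of these genes.

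**Figure D5:**
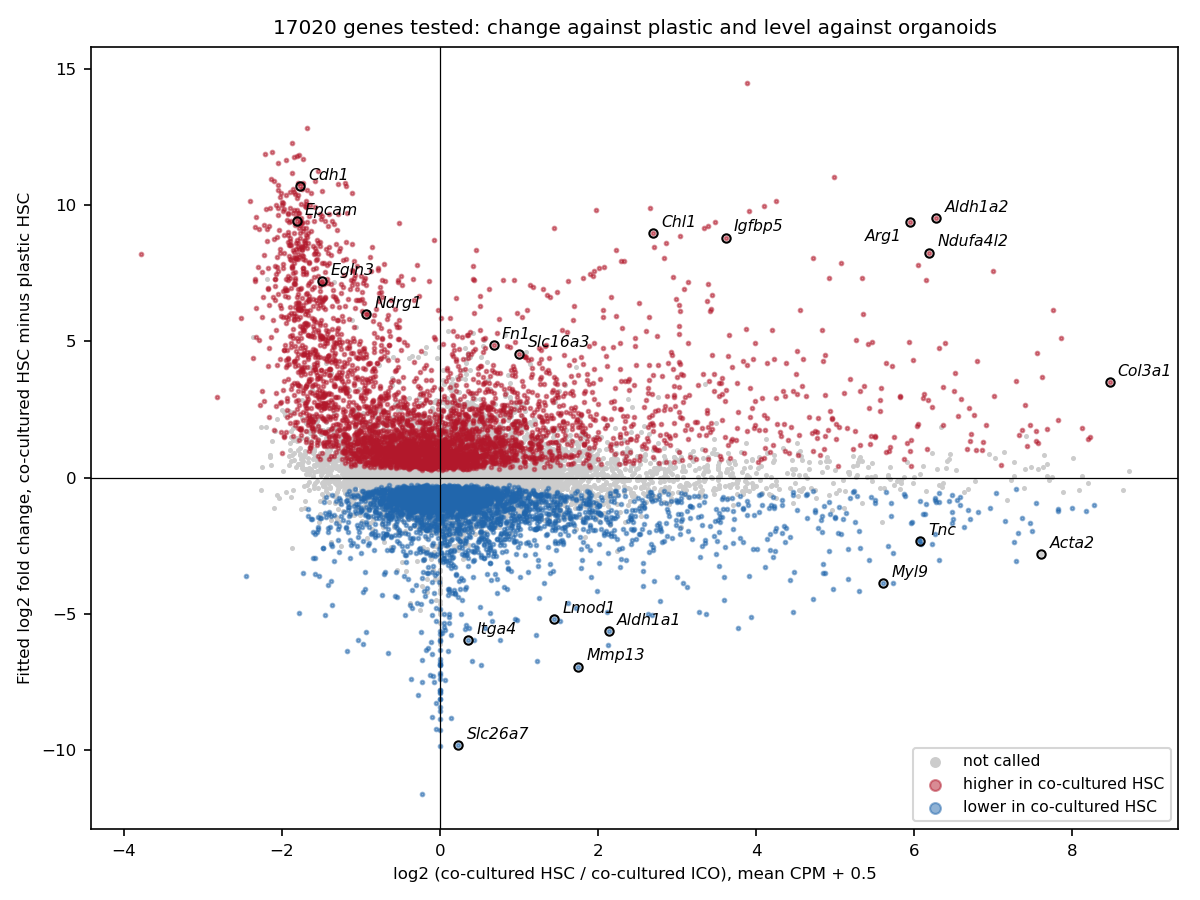
Fitted log2 fold change of co-cultured HSC minus plastic HSC (vertical) against the log2 ratio of the mean levels in co-cultured HSC and co-cultured ICO (horizontal, CPM + 0.5), 1 point per tested gene. Epithelial genes such as Epcam and Cdh1 form a column at the upper left below the ICO level, while Aldh1a2, Arg1 and Col3a1 lie at the right, far above it.

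Epithelial genes were checked against the organoids. Of 32 cholangiocyte genes 30 were called higher and none lower (median 8.06), and 9 of the 29 that could be tested were called higher after subtraction. Epcam, an epithelial adhesion molecule, had 378, 207 and 566 CPM in co-cultured HSC, against 0.594, 0.721 and 0.301 CPM in plastic HSC (log2 fold change 9.42 ± 1.03, adjusted p = 9.22e-05), and 1435, 1338 and 1276 CPM in co-cultured ICO. HSC alone in Matrigel had 374, 149 and 39.5 CPM of Epcam. Cdh1, E-cadherin, had 206, 113 and 291 CPM in co-cultured HSC, against 0.132, 0.192 and 0 CPM in plastic HSC, and 723, 665 and 700.1 CPM in ICO. Krt19, a keratin of bile ducts, had 509, 224 and 689 CPM in co-cultured HSC, against 1.78, 1.44 and 1.92 CPM in plastic HSC, and 1552, 1982 and 1577 CPM in ICO. For each of these 3 genes replicate 3 was highest and replicate 2 lowest among co-cultured HSC, the order of the organoid share, which Epcam and Cdh1 themselves help to define. Every co-cultured HSC library lay below its ICO partner. The adjusted p after subtraction was 0.0662 for Epcam, 0.0245 for Cdh1 and 0.0575 for Krt19. The subtracted share was set on 14 genes of the cholangiocyte list, Epcam and Cdh1 among them. A loss of signal after subtraction was thus built in for these genes and for much of the list, and it does not show where the transcripts came from. Of 17 squamous and mucosal genes 14 were higher and 1 lower. After subtraction 9 of the 17 could be tested and 1 was higher. Mab21l4, Tmprss4, Fxyd3, Sprr2a1 and Hsd17b2, the largest increases among genes below ICO, had no counts in plastic HSC. Mab21l4 had 64.9, 26 and 85.2 CPM in co-cultured HSC and 194, 202 and 173 CPM in co-cultured ICO.

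Markers of other liver cells were summed to see what else moved. In bulk RNA, fewer cells of a type and less RNA per cell cannot be told apart. Of 20 endothelial genes 12 were lower and 2 higher (1 higher without co-cultured replicate 1), and the sum of the list ran from 501 to 739.96 CPM in co-cultured HSC, against 897 to 1095 CPM in plastic HSC. Most of that sum was Eng, which HSC also express. Pecam1, the platelet endothelial adhesion molecule, had 0.512, 2.33 and 1.34 CPM in co-cultured HSC, against 4.69, 4.32 and 5.05 CPM in plastic HSC (log2 fold change -1.64 ± 0.33, adjusted p = 0.00131, and 0.152 with the organoid share as a covariate). Of 20 macrophage genes 4 were higher and 3 lower, near the shares of 22.9% and 19.6% over all genes, and none was lower after subtraction. The sum of the list ran from 299 to 453 CPM in co-cultured HSC, against 149 to 591 CPM in plastic HSC. The Kupffer cell genes Clec4f and Timd4 were at 0 in all 6 libraries, and Adgre1, the F4/80 antigen, had 3.46, 2.07 and 3.84 CPM in co-cultured HSC, against 5.61, 5.57 and 18.2 CPM in plastic HSC (log2 fold change -1.67 ± 0.44, adjusted p = 0.00949, and 0.093 after subtraction). Without co-cultured replicate 1 the counts were 5 higher and 1 lower. Without plastic replicate 3, which held the most macrophage transcripts, 7 were higher and 1 lower.

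Of 27 hepatocyte genes 9 were higher and 1 lower, against 5 and 1 after subtraction, and none was lower when any of the 6 libraries was left out. In the full set the sum of the list ran from 254 to 475 CPM in co-cultured HSC, against 115 to 154 CPM in plastic HSC and 733 to 789 CPM in co-cultured ICO. Alb, albumin, had 21.9, 1.09 and 5.25 CPM in co-cultured HSC, against 0, 3.17 and 0 CPM in plastic HSC (adjusted p = 0.0852, 0.0382 without co-cultured replicate 2 and 0.0173 without plastic replicate 2), and 3 of the 27 genes had no counts in the 6 libraries. Of 12 portal fibroblast genes 7 were higher and none lower, at a sum of 852 to 1042 CPM in co-cultured HSC, 187 to 207 CPM in plastic HSC and 1319 to 1426 CPM in co-cultured ICO. Thy1, a surface glycoprotein of portal fibroblasts, had 6.91, 7.81 and 8.25 CPM in co-cultured HSC, against 0.066, 0.624 and 0.241 CPM in plastic HSC (log2 fold change 4.52 ± 0.58, adjusted p = 5.87e-05), and Cd34, a sialomucin of those cells and of vessels, had 36.7, 69 and 57.5 CPM in co-cultured HSC, against 4.95, 3.27 and 12.1 CPM in plastic HSC (log2 fold change 3.00 ± 0.39, adjusted p = 8.99e-05). Co-cultured ICO had 0.572, 0.622 and 0.499 CPM of Thy1 and 0.229, 0.553 and 0.649 CPM of Cd34. Of 10 mesothelial genes 4 were called higher, and 2 after subtraction. Msln, mesothelin, one of the 4, had 300.3, 121 and 300.4 CPM in co-cultured HSC and 689, 769 and 646 CPM in co-cultured ICO. Of 11 lymphocyte genes only 3 passed the filter on low counts and 1 of these, Cd3d, was higher, at a sum of 1.22 to 2.05 CPM in co-cultured HSC and 0.541 to 1.2 CPM in plastic HSC. The part of other cell types in these differences was not tested.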

How the data were processed

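The deposited table gives the authors' estimated counts for each gene in 18 libraries, per the file headers. Build GRCm39 and the tools kallisto 0.46.1 and DESeq2 1.36.0 appear in the submitters' processing notes without a stated role, and the annotation is not given in the sources used here. Reads of near-identical genes may be divided among them. The table held 35667 genes, and 43 repeated symbols were renamed. Counts were rounded and tested with edgeR 4.0.16 in R 4.3.3 (TMM scaling, default low-count filter, robust quasi-likelihood) in 1 fit of 12 HSC libraries, with Benjamini-Hochberg adjustment over 17020 genes and a threshold of 0.05. The SE is the absolute fold change over the square root of F, so it is no estimate apart from the test. Floors are 3 counts over a group and cover counting error only.

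The organoid share is the median, over 14 genes with at least 100 CPM in both ICO groups and under 5 CPM in each day 0 and plastic library, of the level over the mean ICO level of the same culture.

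The comparison and the 34 lists (813 genes) were chosen with earlier results of these data known. Named genes come mainly from 195 picked by rule: the 10 largest decreases and increases (increases above ICO) and the 5 largest increases below ICO, with 10 CPM or more on average in whichever group was higher and libraries that did not overlap, up to 3 called members per list and direction, and fixed markers. Other list members were named after their values were seen. Promoter sequences are RefSeq, build GRCm38.p6, not the authors' build, so no other coordinates are given. Alternatives were RLE scaling, DESeq2 1.42.0 run here, no filter, a filter of 10 CPM in 3 libraries, fits of 6 or 18 libraries, the replicate block, subtraction of the organoid share or its use as a covariate, a test against a log2 fold of 1, and each library left out.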

Additional observations from a re-analysis of the deposited data

How the results depend on the processing

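Under RLE scaling, DESeq2, no filter, the stricter filter, the fits of 6 or 18 libraries, the replicate block and each library left out, the totals of higher and lower genes stayed within 1.5 times 3901 and 3338. Leaving out 1 library gave 3262 to 3650 higher and 2828 to 3363 lower, and the replicate block gave 3611 and 3140. The samples share only a number (deviations of same-numbered libraries correlated at 0.055, -0.017 and 0.0054). Subtracting the organoid share gave 2783 and 2756. Used as a covariate, it gave 2040 and 1890, and a test against a log2 fold of 1 gave 1464 and 649. Of higher genes above ICO in 3 of 3, 1235 became 417 against that fold and 612 when at least 2 times the ICO level was asked for. Of those below ICO in 3 of 3, 1842 became 512 (subtracted), 768 (covariate) and 904 (fold). Lower genes above ICO, 1348, became 885, 637 and 334 in the same order. List members called, 296 and 204, became 187 and 87 against the fold. The cause was not tested, beyond the fold test asking for more.

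Signs turned for genes that lay below ICO when the share was subtracted: Cav2 -9.34, Cxcl5 -1.95, Cfi -5.63, Atf3 -2.31, Gsta4 -0.56 and Cd14 -1.99. Pdgfrb was 0.042 with the covariate. Pdgfra, not called, was -0.017 under RLE, -0.017 under DESeq2, -0.019 with no filter and -0.010 with 18 libraries, and -0.15 to 0.18 with 1 library left out. Hgf, not called, was -0.027 to 0.50 with 1 library left out, negative without co-cultured replicate 2 or plastic replicate 3. Of 195 named genes, 130 kept direction and call in every alternative in which they could be tested, the fold test aside. Some could not be tested in each, such as Mab21l4, Tmprss4 and Fxyd3 after subtraction. Co-cultured replicate 1 had the fewest counts, so its low levels are least precise.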
